A study of Mus musculus with 10 samples.

Results

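The genes described here are 31 CDK inhibitors and p53 target genes, taken by symbol from the 23235 gene symbols that both deposited tables share. They comprise 3 CIP/KIP inhibitors, 3 INK4 inhibitors, 12 p53 feedback and stress regulators, 10 apoptosis effectors and death receptors, and 3 genes of DNA repair and nucleotide supply. All 31 symbols were found in both tables. The question put to them was whether loss of Chd8, a chromatin remodeller reported to repress p53, was accompanied by higher levels of the p53 programme.

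RNA was sequenced from GFP-positive cells sorted at embryonic day 15 from mouse brain cortices that had been electroporated in utero at day 13, when the radial glial cells that line the ventricle take up the plasmids. Each library came from a separate pool of 3 to 5 embryos. The new set held 3 libraries with Chd8 shRNA (knockdown, numbered 10, 11 and 12) and 3 with control shRNA (numbered 10, 11 and 12), and its table is labelled as the one of shRNA 1. The first set held 2 knockdown libraries and 2 control libraries (numbered 1 and 2 in each group), and its table is labelled as the one of shRNA 2. The agent of both control groups is given as control shRNA only, with no target, and neither the mouse strain nor a genotype is stated. The transfected cells were those that took up plasmid at day 13 together with the cells born from them by day 15, so each library mixed progenitors and neurons, and in such bulk samples fewer cells of a type and less RNA per cell cannot be told apart. The shRNA and the set changed together, so a difference between the sets cannot be assigned to either.

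p53 is a transcription factor that is held at a low level by the ubiquitin ligase Mdm2, which is itself a p53 target. When DNA damage or another stress frees it, p53 raises genes that stop the cell cycle, repair DNA, retune metabolism or start apoptosis. The CDK inhibitors bind cyclin-dependent kinases or their cyclin complexes and hold back division, and in the embryonic cortex Cdkn1b and Cdkn1c are known for their part in the exit of progenitors from the cell cycle.

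A p53 response element is made of a pair of 10-base half-sites, and the promoters of Cdkn1a and Ccng1 are shown because they alone, among those searched for the 31 genes, held a match to the whole element. RefSeq promoter sequences (build GRCm38.p6), covering 250 bases before to 50 bases after each gene start, were matched by symbol for 24 of the 31 genes, in 32 promoters. They were searched on both strands for the full p53 consensus, defined as 20 bases with no spacer, with the C and G at the core of each half-site exact and at most 2 mismatches elsewhere. Matches to the full consensus were present in 2 of the 32 promoters (6.25%), against 107 of 32851 promoters in the whole table (0.326%). At least 1 half-site was present in 12 of the 32 (37.5%), against 8.36% of all promoters. A match is a description of the letters in this window only. The table holds 2 promoters for Cdkn1a, of which the one with the match lay at chr17:29090729-29091028 on the plus strand, with its match starting 51 bases before the gene start. That of Ccng1 lay at chr11:40755237-40755536 on the minus strand, with its match starting 195 bases before the gene start. Both matches had 1 mismatch, and capitals mark them in the promoters, which are written 5′ to 3′ along the gene.
Cdkn1a: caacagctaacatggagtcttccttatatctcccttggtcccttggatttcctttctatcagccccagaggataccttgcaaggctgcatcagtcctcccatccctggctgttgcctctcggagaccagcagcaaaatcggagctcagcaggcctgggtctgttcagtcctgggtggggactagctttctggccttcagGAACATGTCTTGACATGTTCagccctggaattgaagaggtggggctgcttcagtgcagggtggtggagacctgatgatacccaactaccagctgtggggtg
Ccng1: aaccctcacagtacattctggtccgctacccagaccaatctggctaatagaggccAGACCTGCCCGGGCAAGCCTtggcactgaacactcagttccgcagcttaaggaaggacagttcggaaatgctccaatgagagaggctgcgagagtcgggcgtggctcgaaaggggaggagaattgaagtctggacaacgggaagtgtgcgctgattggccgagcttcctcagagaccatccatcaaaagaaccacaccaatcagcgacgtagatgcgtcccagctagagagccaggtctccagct

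The targeted gene was lower in the knockdown libraries of both sets. Levels are FPKM, fragments scaled to transcript length and to the mapped total, so they can be set side by side between genes within a table. Chd8 had 2.09, 1.84 and 1.92 FPKM in the new-set knockdown libraries, against 3.59, 3.30 and 4.02 FPKM in the new-set controls. First-set knockdown libraries had 8.55 and 9.23 FPKM, against 12.4 and 13.8 FPKM in first-set controls. Neither pair of groups overlapped, and mean Chd8 was 53.6% of control (new set) and 68.0% (first set). On the log2(FPKM + 1) scale, on which all fold changes here were taken (a scale that understates the change of low genes), Chd8 fell by 0.65 in the new set (log2, SE 0.117, limma with Benjamini-Hochberg adjustment, adjusted p = 0.0213). The first-set difference of −0.51 did not pass the threshold of 0.05 (limma adjusted p = 0.152). Left out 1 at a time, new-set libraries other than control 11 each ended the Chd8 call, with limma adjusted p up to 0.0829. Trp53 itself, the gene of p53, had 112, 114 and 100 FPKM in the new-set knockdown libraries and 113, 128 and 103 FPKM in the new-set controls, with overlapping groups. Its difference was −0.08 (new set) and −0.20 (first set), with limma adjusted p = 0.637 and 0.632.

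The libraries of the first set differed in background as well as in group. Olfactory receptor genes (1118 symbols), whose expression is largely limited to the olfactory epithelium, averaged 1.39 and 0.993 FPKM in the first-set knockdown libraries, against 0.0181 and 0.0217 FPKM in their controls. In those 2 knockdown libraries 80.9% and 78.9% of all genes were above 0.1 FPKM, against 60.9% and 61.6% in the controls. In the new set the olfactory receptor means were between 0.0033 and 0.0055 FPKM in all 6 libraries. Absolute depth is unknown, because the tables hold no counts, but the steps between the lowest values put the relative depth of the first-set knockdown libraries at 0.527 each, with first-set controls at 1 and 1.22. Markers of cortical cells were present as labelled, with all 10 radial glia, 7 intermediate progenitor and 11 neuronal markers of the tables at 1 FPKM or more in every library. The sums of several marker lists did not overlap between groups. In the new set the summed level of 11 neuronal markers was 3406 to 4145 FPKM in knockdown libraries against 2446 to 2860 FPKM in controls, and that of 7 intermediate progenitor markers was 540 to 597 FPKM in knockdown libraries against 804 to 959 FPKM in controls. Erythroid markers (7 genes) summed to 23.5 to 115 FPKM in new-set knockdown libraries against 150 to 281 FPKM in new-set controls, and GABAergic interneuron markers (8 genes) to 7.94 to 8.45 FPKM in new-set knockdown libraries against 16.4 to 22.9 FPKM in new-set controls. The neuronal sum of the first set ran the other way, at 3196 to 3406 FPKM in knockdown libraries against 4445 to 5058 FPKM in controls. So did the first-set intermediate progenitor sum, at 532 to 975 FPKM in knockdown libraries against 498 to 512 FPKM in controls. Its markers were divided, since 2 of the 7 rose and 2 fell in the first set. Gadd45g (172 to 582 FPKM in knockdown libraries, 50.8 to 110 FPKM in controls) and Hes6 (131 to 204 against 32.3 to 53.4 FPKM) were higher. Eomes (18.2 to 19.6 against 35.6 to 60.5 FPKM) and Btg2 (106 to 164 against 242 to 293 FPKM) were lower. In the new set 3 of the 7 fell and 0 rose, and Eomes overlapped. The radial glia sum, most of it Fabp7, overlapped in both sets, but 6 of its 10 markers fell in new-set knockdown libraries, 2 fell in those of the first set, and none rose in either. The part of these shifts in the results that follow was not tested.

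Control levels varied widely among the 31 genes. Bax was the most abundant of the 31 genes in both sets, at 206 ± 22.8 FPKM (SD, n = 3) in new-set controls and 268 and 224 FPKM in those of the first set. In new-set controls Cdkn1c, at 91.7 FPKM, and Sesn1 followed, and then Mdm2, Plk2 and Ei24 at 52.2, 52.1 and 50.6 FPKM, which did not differ beyond their spread. In first-set controls Plk2 came second, at 108 ± 25.3 FPKM (SD, n = 2). Genes with a control mean under 1 FPKM numbered 6 (new set) and 7 (first set), and Cdkn2a was at or near 0 throughout. Only genes averaging 1 FPKM or more within a table were tested, a condition that 25 of the 31 genes met in the new-set table, 26 met in that of the first set and 24 met in both. Fas and Bbc3 met it in the first set through their knockdown libraries alone, since their control means were under 1 FPKM.

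In the new set, the one with more libraries, none of the 25 tested genes passed the threshold (limma, Benjamini-Hochberg adjusted over all 11291 genes tested), where 8.99% of all tested genes did, 3.84% as higher and 5.15% as lower. An unadjusted limma p under 0.05 was reached by 6 of the 25, beside 3389 of all 11291 genes tested. The nearest to a call were Pmaip1, Trp53inp1 and Plk2, all with knockdown levels above every control library. The median log2 fold change of the 25 was −0.03, beside 0.02 over all genes tested, and the range ran down to −0.40 for Cdkn2c and up to 0.66 for Pmaip1. Knockdown libraries lay wholly above controls for 3 of the 25 genes and wholly below for 2, where 18.6% and 17.1% of all tested genes did so (35.7% in either direction).

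Libraries of the same number deviated together in the new set, so the fit with the replicate number as a block is given beside it. With that block 4 of the 25 genes rose and none fell: Pmaip1, Trp53inp1, Plk2 and Ei24, each higher in knockdown in 3 of 3 pairs. The fit used the same pairs, so that agreement adds nothing to the calls. Bax and Bbc3, uncalled with the block, were also higher in 3 of 3 pairs. The block raised the share of all tested genes called to 21.7%, with 11% called as higher and 10.7% as lower.

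In the first set 4 of 26 tested genes rose and 1 fell, where 23.8% of all 12461 tested genes were called, 13.2% as higher and 10.7% as lower. Tnfrsf10b, Pmaip1, Fas and Bbc3 rose, and Trp53inp1 fell. The calls of Fas and Bbc3 depend on the knockdown libraries that brought them over the minimum, and with the olfactory receptor background subtracted neither could be tested. The median log2 fold change of the 26 was −0.11, beside −0.15 over all genes tested. An unadjusted limma p under 0.05 was reached by 9 of the 26, beside 4884 of all 12461 genes tested. Knockdown libraries lay above controls for 10 genes and below for 11, with 5 overlapping, where 27.4% and 40.4% of all tested genes lay above and below (67.8% in either direction). Of all genes called in the first set 55.2% were higher, and with median-of-ratios scaling 81.6% were, as the scaling moved the median of all genes to 0.09. Under it 5 of the 26 genes rose, with Sesn2 added, and none fell, where 20.1% of all tested genes were called, 16.4% as higher and 3.68% as lower. Neither Mdm2 nor Cdkn1a was among the genes called in either set.

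**Figure D1:**
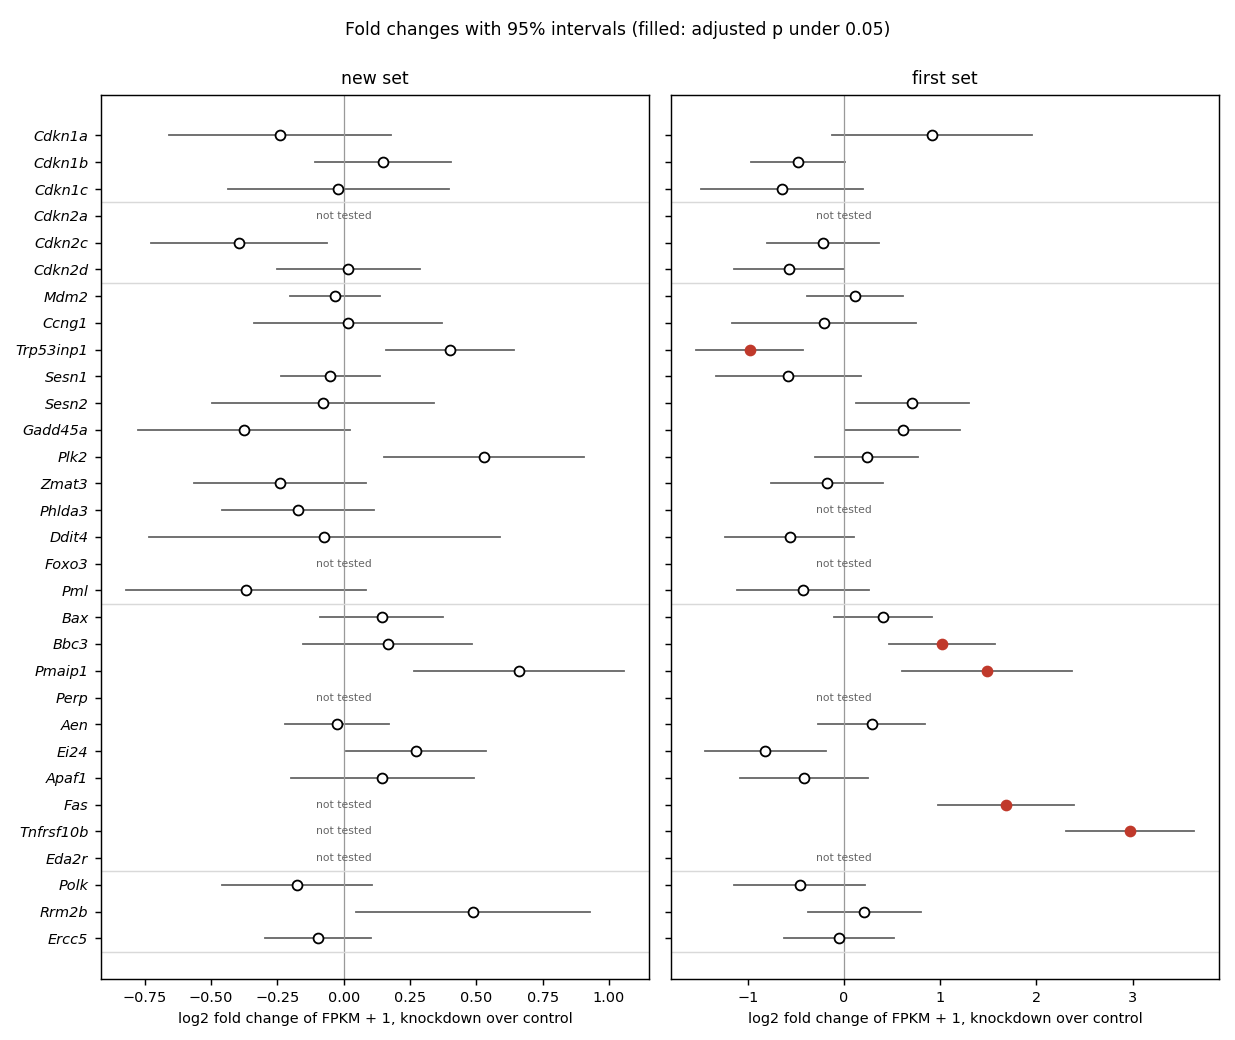
Log2 fold change of FPKM + 1, knockdown over control, for the 31 genes (rows, ordered by role, grey lines between roles) in the new set (left) and the first set (right). Points are limma estimates, bars their 95% intervals, and filled points passed an adjusted p of 0.05; the x ranges of the panels differ. No point is filled in the new set, and 5 are filled in the first set, of which Tnfrsf10b lies farthest out at 2.98.

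The CIP/KIP inhibitors, which bind CDK–cyclin complexes, did not pass the threshold in either set. Cdkn1a (p21), the arrest gene most often used to read out p53, had 2.03, 2.90 and 3.45 FPKM in new-set knockdown libraries, against 3.18, 4.33 and 2.91 FPKM in new-set controls. The groups overlapped, and the log2 difference was −0.24 (SE 0.182, limma adjusted p = 0.395). In the first set Cdkn1a had 3.39 and 10.5 FPKM in knockdown libraries, against 2.73 and 2.82 FPKM in controls. The first-set groups did not overlap, but knockdown library 2 stood far above knockdown library 1, which was close to the controls. The first-set difference was 0.92 (SE 0.441, limma adjusted p = 0.168), and without knockdown library 1 it became 1.61 and passed the threshold (limma adjusted p = 0.0466).

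Cdkn1b (p27) had 15.6, 18.0 and 14.8 FPKM in new-set knockdown libraries, against 15.8, 14.4 and 13.1 FPKM in new-set controls, and the groups overlapped. It had 34.8 and 30.7 FPKM in first-set knockdown libraries, against 43.0 and 49.4 FPKM in first-set controls, with no overlap. Neither difference passed alone, at 0.15 (new set) and −0.48 (first set), with limma adjusted p = 0.392 and 0.134. The sets differed from each other, however, with the new-set fold change larger by 0.63 (SE 0.199, limma adjusted p = 0.0324), a call lost with median-of-ratios scaling (0.36, limma adjusted p = 0.210) and without any of 6 libraries (limma adjusted p up to 0.0929). Cdkn1c (p57), an imprinted inhibitor of the same family, had 101, 112 and 65.1 FPKM in new-set knockdown libraries, against 86.1, 95.5 and 93.4 FPKM in new-set controls. Knockdown library 12 was the lowest of all 6 and the other knockdown libraries were the highest. It had 19.3 and 19.8 FPKM in first-set knockdown libraries, against 20.8 and 46.1 FPKM in first-set controls, so that 1 control library set the difference of −0.64 (limma adjusted p = 0.223).

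The INK4 inhibitors act on CDK4 and CDK6. Cdkn2c (p18) had 15.3, 11.1 and 16.7 FPKM in new-set knockdown libraries, against 18.1, 18.8 and 20.01 FPKM in new-set controls. Every knockdown library was below every control, and the difference of −0.40 (SE 0.144) was the lowest among the 25 genes tested in the new set, short of the threshold (limma adjusted p = 0.114). The first set showed 4.63 and 5.35 FPKM for Cdkn2c in knockdown libraries, against 5.78 and 6.18 FPKM in controls (difference −0.22, limma adjusted p = 0.529), so knockdown lay below control without overlap in both sets. Cdkn2d (p19) overlapped in the new set, with 7.17, 8.40 and 7.11 FPKM in knockdown libraries and 7.55, 8.18 and 6.66 FPKM in controls. In the first set Cdkn2d had 2.58 FPKM in both knockdown libraries, against 4.11 and 4.56 FPKM in controls, a difference of −0.58 that did not pass (limma adjusted p = 0.126). Cdkn2a, which encodes p16 and p19ARF, was listed at 0 in 8 of the 10 libraries, with 0.179 FPKM in first-set knockdown library 1 and 0.0490 FPKM in new-set control 10.

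**Figure D2:**
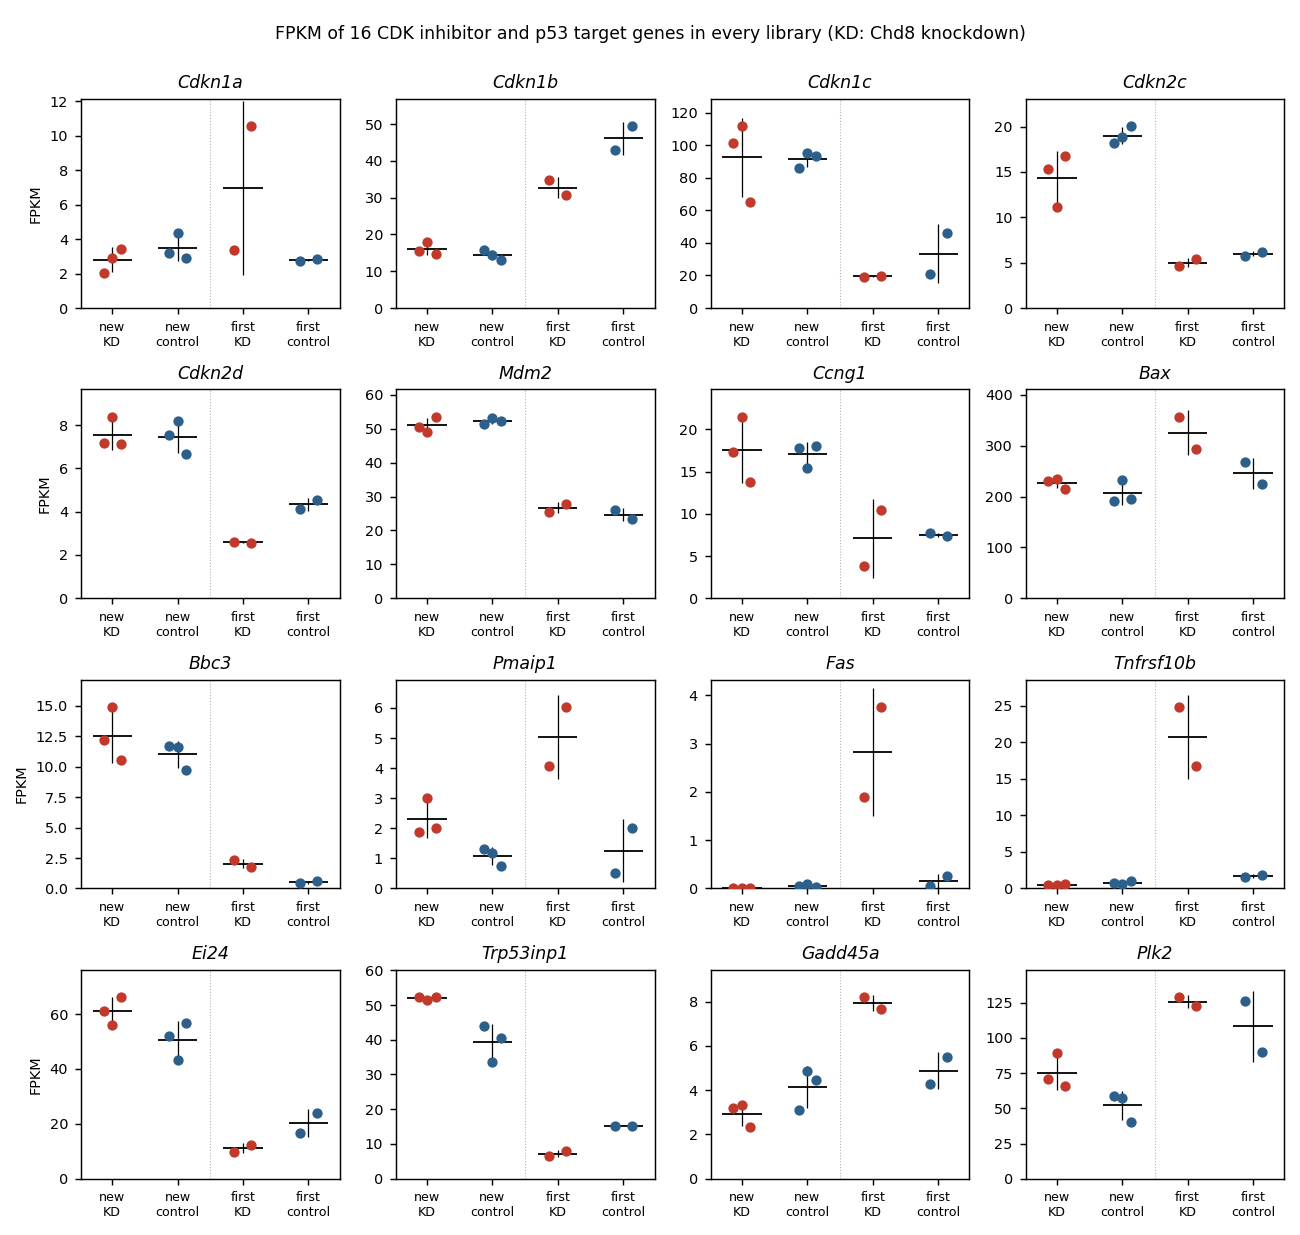
FPKM (y axis, linear from 0) of 16 of the genes in every library, with knockdown (KD, red) left of control (blue), new set before first set. Dots are libraries, horizontal lines means and vertical lines 1 SD (n = 3 in new-set groups, n = 2 in first-set groups); Trp53inp1 and Ei24 lie higher in new-set knockdown and lower in first-set knockdown than in their controls.

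Among the genes of p53 feedback, Mdm2 differed little between groups. It had 50.5, 49.1 and 53.6 FPKM in new-set knockdown libraries, against 51.3, 53.2 and 52.2 FPKM in new-set controls. It had 25.6 and 27.9 FPKM in first-set knockdown libraries, against 26.04 and 23.4 FPKM in first-set controls. Both pairs of groups overlapped, and the new-set 95% interval of the Mdm2 difference ran from −0.20 to 0.14 on the log2 scale (estimate −0.03, limma adjusted p = 0.792). The first-set interval was wider, from −0.38 to 0.61 (estimate 0.11, limma adjusted p = 0.720). Ccng1, cyclin G1, which with the phosphatase PP2A acts on Mdm2, had 17.3, 21.5 and 13.7 FPKM in new-set knockdown libraries, against 17.8, 15.5 and 18.0 FPKM in new-set controls. The first-set knockdown libraries, at 3.80 and 10.4 FPKM, lay on either side of their controls, at 7.71 and 7.38 FPKM. Ccng1 and Cdkn1a, the 2 genes with a full p53 match near the start, were thus both uncalled in both sets. Both had their higher first-set knockdown value in library 2. This was not particular to them: among genes searched without a full match, Mdm2, Sesn1 and Ei24 did too, while Bax and Bbc3 had theirs in library 1.

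Trp53inp1, a stress protein that acts in autophagy and in the activation of p53, lay on opposite sides of control in the 2 sets. It had 52.2, 51.5 and 52.3 FPKM in new-set knockdown libraries, against 44.0, 33.6 and 40.5 FPKM in new-set controls. It had 6.56 and 7.93 FPKM in first-set knockdown libraries, against 15.2 FPKM in both first-set controls. Every knockdown library was above every control in the new set and below every control in the first set. The new-set difference was 0.40 (SE 0.105, limma adjusted p = 0.0518, and 0.0270 with the replicate block), and in the first set it fell by 0.98 (SE 0.237, limma adjusted p = 0.0265). The first-set call was lost whichever of the 4 libraries was left out (limma adjusted p between 0.0793 and 0.143), and with median-of-ratios scaling, where the difference was −0.74 (limma adjusted p = 0.0617). The difference between the sets was 1.38 (SE 0.197, limma adjusted p = 0.00104).

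Gadd45a, which takes part in growth arrest and DNA repair, also differed in sign between the sets. It had 3.17, 3.34 and 2.32 FPKM in new-set knockdown libraries, against 3.10, 4.88 and 4.46 FPKM in new-set controls. It had 8.20 and 7.69 FPKM in first-set knockdown libraries, against 4.30 and 5.48 FPKM in first-set controls. New-set groups overlapped and first-set groups did not. Neither difference passed alone, at −0.38 and 0.61 (limma adjusted p = 0.187 and 0.120), while the difference between the sets of −0.99 did (SE 0.279, limma adjusted p = 0.0204), unless first-set control 1 was left out (limma adjusted p = 0.0698) or the olfactory receptor background was subtracted (−0.79, limma adjusted p = 0.0529). Plk2, a polo-like kinase, had 70.8, 89.1 and 65.7 FPKM in new-set knockdown libraries, against 58.8, 57.0 and 40.5 FPKM in new-set controls. All 3 knockdown libraries were above the controls, with a difference of 0.53 (SE 0.164, limma adjusted p = 0.0790, and 0.0192 with the replicate block). First-set Plk2 groups overlapped, at 129 and 123 FPKM in knockdown libraries and 126 and 90.3 FPKM in controls.

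The other 7 regulators passed the threshold in neither set. Sesn1 and Sesn2, the sestrins that restrain mTORC1, differed by −0.05 and −0.08 in the new set. Sesn2 had 3.51 and 2.75 FPKM in first-set knockdown libraries, against 1.37 and 1.68 FPKM in first-set controls, without overlap (difference 0.71, SE 0.250, limma adjusted p = 0.0790). With median-of-ratios scaling that Sesn2 difference became 0.88 and passed (limma adjusted p = 0.0497). With the olfactory receptor background subtracted it shrank to 0.23 (limma adjusted p = 0.593). Ddit4 (REDD1), another brake on mTORC1, differed by −0.07 (new set) and −0.57 (first set). Zmat3, an RNA-binding protein, differed by −0.24 and −0.18, and Pml, the scaffold of nuclear bodies, by −0.37 and −0.43, with limma adjusted p from 0.241 to 0.622 over these 4 values. Phlda3, which restrains Akt, differed by −0.17 in the new set (limma adjusted p = 0.379) and was too low for a test in the first set. The transcription factor Foxo3 was too low in both, with no new-set value above 0.474 FPKM and 0 in both first-set knockdown libraries.

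Pmaip1 was the only gene of the apoptosis group with the same direction and no overlap between groups in both sets. Pmaip1 (Noxa) encodes a BH3-only protein that neutralises Mcl1. It had 1.88, 3.01 and 2.02 FPKM in new-set knockdown libraries, against 1.30, 1.19 and 0.756 FPKM in new-set controls. It had 4.06 and 6.03 FPKM in first-set knockdown libraries, against 0.512 and 2.003 FPKM in first-set controls. Mean Pmaip1 was 213% of control (new set) and 401% (first set). The new-set difference of 0.66 (SE 0.172) stood just outside the threshold (limma adjusted p = 0.0514, and 0.0288 with the replicate block), and in the first set Pmaip1 rose by 1.48 (SE 0.375, limma adjusted p = 0.0301). The first-set call was lost without knockdown library 1, knockdown library 2 or control library 1 (limma adjusted p between 0.127 and 0.167), without the 1 FPKM minimum (limma adjusted p = 0.103), and with the olfactory receptor background subtracted, where the difference was 1.16 (limma adjusted p = 0.0895). The difference between the sets was −0.82 (limma adjusted p = 0.133).

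Bbc3 (Puma), the other BH3-only protein of the list, had 12.2, 14.9 and 10.5 FPKM in new-set knockdown libraries, against 11.7, 11.6 and 9.74 FPKM in new-set controls. It had 2.31 and 1.78 FPKM in first-set knockdown libraries, against 0.433 and 0.578 FPKM in first-set controls. It rose in the first set by 1.01 (SE 0.234, limma adjusted p = 0.0231), while the new-set groups overlapped with a difference of 0.17 (limma adjusted p = 0.448). The first-set call was lost without control library 1 or 2 (limma adjusted p = 0.181 and 0.133), and without knockdown library 1 Bbc3 was too low to be tested. The new-set fold change was smaller than the first-set one by 0.85 (difference −0.85, SE 0.250, limma adjusted p = 0.0243). In the first-set knockdown libraries 6.17% and 7.33% of olfactory receptor genes had values at or above that of Bbc3, and its values there were under their 95th percentiles of 2.92 and 2.47 FPKM. With that background subtracted Bbc3 was too low to be tested in the first set.

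Bax, the pore-forming effector downstream of these proteins, had 231, 235 and 215 FPKM in new-set knockdown libraries, against 190, 232 and 196 FPKM in new-set controls. It had 357 and 294 FPKM in first-set knockdown libraries, against 268 and 224 FPKM in first-set controls. It was higher on average in both sets, by 0.14 and 0.40, with overlap between new-set groups and none between first-set groups, and passed the threshold in neither (limma adjusted p = 0.366 and 0.205).

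The death receptors were near 0 in the new set. Tnfrsf10b, the mouse TRAIL receptor, had 0.450, 0.455 and 0.611 FPKM in new-set knockdown libraries, against 0.713, 0.677 and 0.979 FPKM in new-set controls. It had 24.8 and 16.7 FPKM in first-set knockdown libraries, against 1.55 and 1.90 FPKM in first-set controls. The first-set levels were far apart, and Tnfrsf10b rose there by 2.98 (SE 0.284, limma adjusted p = 0.00126), the largest fold change among the tested members in either set. This call held without each of the 4 libraries in turn, and with the olfactory receptor background subtracted the difference was 2.90 (limma adjusted p = 0.00347). Only 0.18% and 0.27% of olfactory receptor genes had values as high in the same knockdown libraries. The new-set values, lower in all 3 knockdown libraries than in any control, were under the 1 FPKM minimum. Without that minimum the new-set difference was −0.25 (limma adjusted p = 0.145), and the new-set fold change was smaller than the first-set one by 3.22 (difference −3.22, SE 0.258, limma adjusted p = 1.75e-05).

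Fas, the receptor of Fas ligand, was listed at 0 in all 3 new-set knockdown libraries and had 0.0553, 0.0867 and 0.0246 FPKM in new-set controls. It had 1.89 and 3.76 FPKM in first-set knockdown libraries, against 0.0543 and 0.265 FPKM in first-set controls. Fas rose in the first set by 1.68 (SE 0.299, limma adjusted p = 0.00889). In the same knockdown libraries 8.94% and 2.95% of olfactory receptor genes had values at or above that of Fas. With that background subtracted, or without knockdown library 2, Fas was too low to be tested, and the call was lost without control library 1 or 2 (limma adjusted p = 0.0895 and 0.0679), or without the 1 FPKM minimum (limma adjusted p = 0.0525). Without that minimum the difference between the sets was −1.76 (SE 0.243, limma adjusted p = 0.000522).

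Markers of other cell types moved in the same libraries. The summed level of 7 microglial markers was 10.7 to 24.5 FPKM in first-set knockdown libraries, against 1.52 to 5.96 FPKM in first-set controls. Between 4 and 7 of the 7 markers were at 1 FPKM or more in a first-set knockdown library, and between 0 and 3 in a first-set control, where C1qa and Tyrobp reached 0. The sum of 6 meningeal and mesenchymal markers, each under 1 FPKM, was also higher, at 1.62 to 1.93 FPKM against 0.371 to 0.640 FPKM. The endothelial and pericyte sum overlapped. Of its markers, Pecam1 (1.13 to 2.15 against 0.221 to 0.275 FPKM), Cdh5, Kdr and Flt1 were higher, while Rgs5 (6.64 to 8.46 against 9.95 to 13.8 FPKM) was lower. Olfactory receptor genes averaged 1.39 and 0.993 FPKM in the first-set knockdown libraries, with 95th percentiles of 2.92 and 2.47 FPKM. The part of this raised background in these marker sums, values and counts was not tested. The part of microglia, or of the other cell types, in the Fas and Tnfrsf10b values was not tested. The third receptor, Eda2r, which binds ectodysplasin A2, was under 1 FPKM in all 10 libraries. It had 0.566, 0.593 and 0.348 FPKM in new-set knockdown libraries, against 0.925, 0.766 and 0.915 FPKM in new-set controls, without overlap. Its first-set groups overlapped, at 0.992 and 0.713 FPKM in knockdown libraries and 0.669 and 0.723 FPKM in controls.

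**Figure D3:**
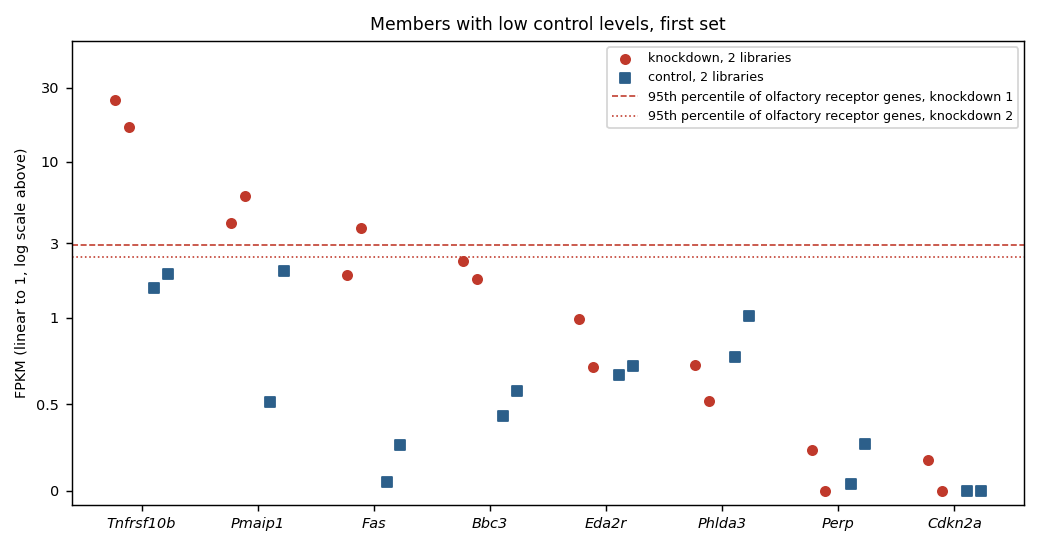
FPKM in the first set (y axis, linear to 1 and log above) of 8 genes with low control levels, knockdown libraries as red circles left of control libraries as blue squares (2 of each per gene). Horizontal lines mark the 95th percentile of olfactory receptor genes in knockdown library 1 (dashed, 2.92 FPKM) and 2 (dotted, 2.47 FPKM): both knockdown values of Tnfrsf10b and of Pmaip1 lie above both lines, Fas lies on either side, and the other 5 genes lie below.

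Of the 31 genes, 8 were under the olfactory receptor 95th percentile in both first-set knockdown libraries: Cdkn2a, Bbc3, Phlda3, Eda2r, Perp, Polk, Pml and Foxo3. With the background subtracted, 24 genes could be tested in the first set, where 25.1% of all tested genes were called, 7.67% as higher and 17.4% as lower. On those values Tnfrsf10b rose and 5 genes fell: Trp53inp1, Cdkn2d, Ddit4, Ei24 and Pml.

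Ei24, a protein of the endoplasmic reticulum with a part in autophagy, had 60.9, 56.1 and 66.1 FPKM in new-set knockdown libraries, against 51.8, 43.2 and 56.6 FPKM in new-set controls. It had 9.78 and 12.3 FPKM in first-set knockdown libraries, against 16.8 and 24.0 FPKM in first-set controls. The new-set groups overlapped slightly, since knockdown library 11 was just under control 12, with a difference of 0.27 (SE 0.115, limma adjusted p = 0.154, and 0.0342 with the replicate block). Every first-set knockdown library was lower, and the difference of −0.82 did not pass (SE 0.266, limma adjusted p = 0.0636). The difference between the sets was 1.09 (SE 0.248, limma adjusted p = 0.00770).

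The remaining effectors were not called. Apaf1, the core of the apoptosome, differed by 0.14 (new set) and −0.42 (first set), and the nuclease Aen by −0.03 and 0.29, with limma adjusted p from 0.303 to 0.862. Perp, a membrane protein of desmosomes, was under the minimum in both sets, at 0.413 to 0.860 FPKM in new-set knockdown libraries and 0.342 to 0.794 FPKM in new-set controls.

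The genes of DNA repair and nucleotide supply did not pass in either set. Rrm2b, the p53-induced subunit of ribonucleotide reductase, had 4.70, 7.82 and 5.24 FPKM in new-set knockdown libraries, against 4.85, 3.38 and 3.46 FPKM in new-set controls. Only knockdown library 10 fell within the range of the controls, and the difference was 0.49 (SE 0.192, limma adjusted p = 0.135). Polk, a translesion DNA polymerase, differed by −0.18 (new set) and −0.46 (first set). Ercc5, an endonuclease of nucleotide excision repair, differed by −0.10 and −0.05, with narrow new-set ranges of 12.1 to 12.8 FPKM in knockdown libraries and 13.2 to 14.0 FPKM in controls.

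The sets were then compared directly, with a shared estimate of spread for both. Replicates of the first set correlated at 0.900 (knockdown) and 0.940 (control), those of the new set at 0.958 to 0.977. The shared estimate can therefore understate the error of a difference. The SE of the Trp53inp1 difference, 0.197, was under its first-set SE of 0.237, and that of Cdkn1b, 0.199, under 0.209. Of the 24 genes tested in both, 13 had the same sign in both sets and 11 opposite signs. The fold change differed between the sets for 5 of them, larger in the new set for Trp53inp1, Ei24 and Cdkn1b and smaller for Gadd45a and Bbc3, where 32.5% of all genes tested in both sets differed, 22.5% as larger and 9.98% as smaller. Without the 1 FPKM minimum Tnfrsf10b and Fas differed as well, where 36.9% of all genes did. Of the differences called over all genes 69.3% were larger in the new set, and 42.5% were with median-of-ratios scaling.

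**Figure D4:**
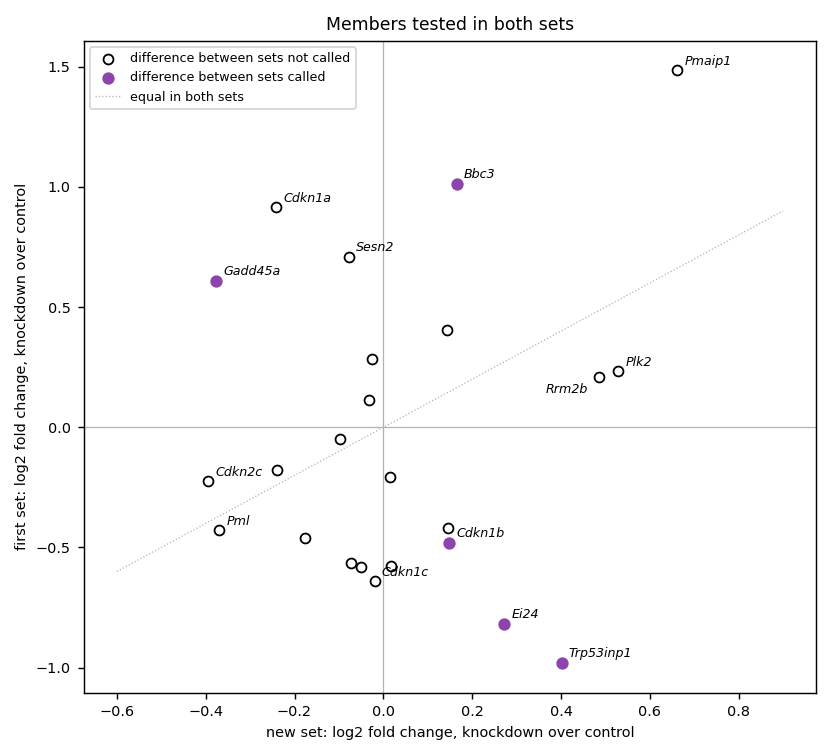
Log2 fold change, knockdown over control, in the new set (x axis) against the first set (y axis) for the 24 genes tested in both; each point is 1 gene and filled points are the 5 whose fold changes differed between the sets (limma, adjusted p under 0.05). Pmaip1 lies in the upper right with 0.66 and 1.48, and Trp53inp1 in the lower right with 0.40 and −0.98.

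A fit over all 10 libraries gave the mean of the 2 fold changes with 1 estimate of spread. In it Pmaip1 rose by 1.07 (SE 0.199, limma adjusted p = 0.00340) and Bbc3 by 0.59 (SE 0.125, limma adjusted p = 0.00612), while Trp53inp1 fell by 0.29 (SE 0.0986, limma adjusted p = 0.0455). These were 3 of 24 genes, where 29.9% of all tested genes were called, 9.37% as higher and 20.5% as lower. The mean for Trp53inp1 averages 2 fold changes of opposite sign, and that for Bbc3 rests mainly on the first set and could not be tested with the olfactory receptor background subtracted or without first-set knockdown 1. The Trp53inp1 call was lost with median-of-ratios scaling (−0.18, limma adjusted p = 0.188), without the intensity trend (limma adjusted p = 0.0554) and without any of 8 of the 10 libraries, all but new-set control 11 and first-set knockdown 2 (limma adjusted p between 0.0767 and 0.127). Pmaip1 kept its call without each of the 10 libraries in turn. With the replicate block Bax (0.27, limma adjusted p = 0.0285) and Plk2 (0.38, limma adjusted p = 0.0249) rose too, and Ei24 was called lower with a mean of −0.27 (limma adjusted p = 0.0305), where 34.1% of all tested genes were called, 10.9% as higher and 23.2% as lower. The Ei24 mean also averages fold changes of opposite sign, 0.27 in the new set, where the block called it higher, and −0.82 in the first set. The median log2 fold change of the 24 genes was −0.12, beside −0.11 over all genes tested. Higher calls made up 31.3% of all calls in this fit, and 54.6% with median-of-ratios scaling.

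Genes that act on p53, and not under it, were listed separately. The counts of this and the following lists stand beside 3.84% of all tested genes called higher and 5.15% called lower (new set), with first-set shares of 13.2% higher and 10.7% lower. Of 22 p53 regulators and partners, 19 were tested in each set: Ppp1r13b (ASPP1, which directs p53 to apoptosis genes) rose in the new set, at 6.06 ± 1.18 FPKM in knockdown libraries and 3.58 ± 0.310 FPKM in controls (SD, n = 3 each, log2 difference 0.61, limma adjusted p = 0.0429). First-set calls were 3 lower and 0 higher. They were Daxx, a histone chaperone that binds Mdm2 (−1.23), Chek1, a checkpoint kinase (−0.95), and Crebbp, an acetyltransferase that acts on p53 (−0.94), with limma adjusted p = 0.0141, 0.0456 and 0.0267. Of 27 further p53 targets, 20 were tested in each set, and 1 rose and 1 fell in the new set, while 1 rose and 5 fell in the first set. Ckap2, Ccng2 and Gtse1, which act in the mitotic spindle, in cell cycle arrest and in the G2 phase, were among those that fell in the first set, by 1.02, 1.34 and 1.36 (limma adjusted p = 0.0172, 0.00687 and 0.0195). In the new set the one that fell was Ak1, adenylate kinase, with 11.4 ± 1.254 FPKM in knockdown libraries and 17.4 ± 1.83 FPKM in controls (SD, n = 3 each, limma adjusted p = 0.0288).

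The targets of the inhibitors, 10 CDKs and cyclins, were uncalled in the new set, and 5 of 10 fell in the first set. Ccnd2, cyclin D2, had 59.5 ± 17.2 FPKM in first-set knockdown libraries and 182 ± 29.0 FPKM in first-set controls (SD, n = 2 each), and fell by 1.62 (limma adjusted p = 0.00574). Ccna2, Ccne2 and Cdk1 fell there by 0.84, 1.20 and 0.72, with limma adjusted p = 0.0390, 0.0334 and 0.0441. The summed radial glia markers overlapped, at 1032 to 2188 FPKM in first-set knockdown libraries and 1807 to 1834 FPKM in first-set controls, a sum carried by Fabp7 (770 to 1830 FPKM in knockdown libraries and 1435 to 1483 FPKM in controls). Of the single markers, Pax6 had 22.1 to 36.2 FPKM in first-set knockdown libraries against 56.6 to 60.4 FPKM in controls, and Slc1a3 had 18.5 to 41.3 FPKM in knockdown libraries against 60.4 to 73.4 FPKM in controls, both without overlap. Hes5 and Emx2 also lay below control there, by little, while Sox2, Hes1, Vim, Nes and Sox9 overlapped. Of the 10 radial glia markers only 2 were called in the first set, as lower. The part of radial glia in the CDK and cyclin values was not tested.

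In the BCL2 family and caspases outside the list, 2 of 18 tested genes rose in the new set, and 1 rose and 2 fell of 19 tested in the first set. Bok, a pore-forming relative of Bax, rose in both sets. It had 67.2 ± 5.86 FPKM in new-set knockdown libraries and 48.1 ± 1.22 FPKM in new-set controls (SD, n = 3 each, log2 difference 0.47, limma adjusted p = 0.0221). It had 51.5 ± 5.42 FPKM in first-set knockdown libraries and 24.0 ± 8.18 FPKM in first-set controls (SD, n = 2 each, log2 difference 1.10, limma adjusted p = 0.0283). Casp2, an initiator caspase activated in the PIDDosome, fell by 1.47 in the first set (limma adjusted p = 0.0110) and differed by −0.13 in the new set (limma adjusted p = 0.399). Mcl1, the protein that Pmaip1 binds, was uncalled in both sets, at −0.12 and −0.59 (limma adjusted p = 0.357 and 0.126), and Casp6, an executioner caspase, likewise at −0.22 and −0.53 (limma adjusted p = 0.135 and 0.140). In the fit over all 10 libraries both fell, Mcl1 by 0.35 and Casp6 by 0.37 (limma adjusted p = 0.0275 and 0.0206), where 20.5% of all tested genes were called lower.

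Genes linked to other stress responses were followed as well. Of 9 integrated stress response genes, which respond to amino acid or endoplasmic reticulum stress through ATF4, 3 of 8 tested rose in the first set and 1 of 7 in the new set. Chac1 had 12.4 ± 1.79 FPKM in first-set knockdown libraries and 4.18 ± 1.09 FPKM in first-set controls (SD, n = 2 each), and rose by 1.38 (limma adjusted p = 0.0134). Ppp1r15a (GADD34) and Herpud1 rose there by 1.31 and 1.02 (limma adjusted p = 0.00825 and 0.0144), and Ddit3, which encodes CHOP, differed by 0.70 (limma adjusted p = 0.0633). None of these 4 was called in the new set. Of the immediate early genes, which are also induced when tissue is dissociated, 17 of 22 tested rose and 1 fell in the first set, while in the new set none of 16 rose and 5 fell. Btg2, which is counted here, is also counted among the further p53 targets and the intermediate progenitor markers. Nr4a1 had 21.2 ± 1.46 FPKM in first-set knockdown libraries and 1.05 ± 0.437 FPKM in first-set controls (SD, n = 2 each, log2 difference 3.46, limma adjusted p = 0.000696). Ier2, Arc and Klf6 rose there by 3.05, 2.48 and 1.56 (limma adjusted p = 0.000754, 0.00126 and 0.00300), whereas in the new set Ier2 fell by 0.49 (limma adjusted p = 0.0287). Arc met the 1 FPKM minimum in the first set through its knockdown libraries alone, since its first-set control mean was under 1 FPKM. How many of the 17 genes that rose met the minimum in this way was not counted. These stress genes moved in the same first-set libraries as Tnfrsf10b, Fas, Pmaip1 and Bbc3, and their part in those 4 results was not tested. Foxo1, a relative of Foxo3, rose in the first set (log2 difference 1.03, limma adjusted p = 0.0225). It had 2.56 ± 0.432 FPKM in first-set knockdown libraries and 0.733 ± 0.0520 FPKM in first-set controls (SD, n = 2 each). The knockdown libraries alone thus brought Foxo1 over the 1 FPKM minimum. Olfactory receptor 95th percentiles in those knockdown libraries were 2.92 and 2.47 FPKM. Foxo6 was uncalled in both sets.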

How the data were processed

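Data of 10 libraries were used, in groups taken from the sample titles. The labels' protocols give an RNeasy Plus extraction of total RNA and a low-input library kit from Clontech. Named in the submitters' processing notes are TopHat2, Bowtie, Cufflinks 2.0.0, Cuffdiff and build mm9. The gene annotation, and any use of strand in counting, were not given in the sources used here. The authors deposited FPKM values in 2 tables made separately, so fold changes were taken within a table. All columns of both tables were used.

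Fold changes were tested in R 4.3.3 with limma 3.58.1 (lmFit, eBayes with an intensity trend, two-sided) on log2(FPKM + 1), for genes averaging 1 FPKM or more in a table, adjusted by Benjamini-Hochberg over all tested genes, with 0.05 as the threshold. The joined and difference contrasts came from 1 fit with separate means for each set and a shared estimate of spread. The scripts were tested on simulated data. P-values measure the spread between pools of embryos, and the new-set, first-set and joined fits left 4, 2 and 6 residual degrees of freedom.

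The members and lists were chosen with earlier results of these data known. All 31 members are named; values per library are given for members called in any contrast, the CDK inhibitors, Mdm2, Ccng1, Bax, Bbc3 and Pmaip1, and also for Sesn2, Rrm2b and Eda2r, chosen after their values were seen. Of each other list, the up to 4 tested genes ranked first by p over both sets are named.

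Same-numbered new-set libraries deviated together (correlations of deviations from the group means of 0.122, 0.242 and 0.193, against −0.162 to −0.0133 for other pairs), so their numbers were taken as pairs. Deviations within a group cancel out, so positive values for same-numbered libraries push those of other pairs down. The labels do not say what a shared number means, and the pairing was read from these same data. For the background alternative the mean olfactory receptor level of a library was subtracted from each value. Other alternatives were a pseudocount of 0.1, no minimum, a minimum of 5 FPKM, median-of-ratios scaling, no intensity trend and each library left out.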

Additional observations from a re-analysis of the deposited data

Results flagged for a closer look

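For 7 genes the response to knockdown differed between the sets, by a test of the difference itself (limma, Benjamini-Hochberg adjusted, new-set minus first-set log2 fold change). The test used a shared estimate of spread for both sets. With the 1 FPKM minimum 3 of 24 genes were larger in the new set and 2 smaller, where 22.5% and 9.98% of all tested genes were (32.5% in either direction). Tnfrsf10b and Fas were added without that minimum, where 36.9% of all tested genes differed. The shRNA, the table and the library background cannot be told apart as sources of these differences.

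Trp53inp1 differed by 1.38 (adjusted p = 0.00104) and Ei24 by 1.09 (adjusted p = 0.00770), both higher in new-set knockdown and lower in first-set knockdown than in their controls. Both differences also passed under every alternative run, leaving out each library included. Cdkn1b differed by 0.63 (adjusted p = 0.0324), a call that was lost with median-of-ratios scaling (0.36, adjusted p = 0.210) and without each of 6 libraries, new-set knockdown 10 or 11, new-set control 11 or 12, first-set knockdown 2 or first-set control 2 (adjusted p up to 0.0929). Gadd45a differed by −0.99 (adjusted p = 0.0204), lost with the olfactory receptor background subtracted (adjusted p = 0.0529) and without first-set control 1 (adjusted p = 0.0698). Bbc3 differed by −0.85 (adjusted p = 0.0243). It met the 1 FPKM minimum in the first set through its knockdown libraries alone, with a first-set control mean of 0.505 FPKM. With the olfactory receptor background subtracted, or without first-set knockdown 1, it could not be tested. Bbc3 lost this call without new-set knockdown 10 or 12, new-set control 10 or first-set control 1 (adjusted p between 0.0551 and 0.0655).

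Without a minimum level, Tnfrsf10b differed by −3.22 (adjusted p = 1.75e-05) and Fas by −1.76 (adjusted p = 0.000522). Both were under 1 FPKM in every new-set library, with knockdown below control, and were above control in both first-set knockdown libraries.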

How the results depend on the processing

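The counts given here are of the listed genes. In the new set none of the 25 tested rose or fell, and the number that rose was 1 without the intensity trend, 4 with the replicate block and 0 to 1 with a library left out. Of all genes tested there 8.99% were called, and 21.7% with the block. In the first set the number that rose was 4, against 2 with no minimum, 1 with a minimum of 5 FPKM, 1 with the olfactory receptor background subtracted and 1 to 3 with a library left out. The number that fell was 1, against 0 with median-of-ratios scaling, 5 with the background subtracted and 0 with any library left out. In the joined fit the number that rose was 2, against 4 with no minimum, 0 with a minimum of 5 FPKM, 4 with median-of-ratios scaling, 1 with the background subtracted, 4 with the replicate block and 2 to 4 with a library left out. The number that fell was 1, against 2 with a pseudocount of 0.1, 0 with median-of-ratios scaling, 7 with the background subtracted, 2 with the replicate block and 0 to 4 with a library left out. Between the sets the number larger in the new set was 3, against 5 with the background subtracted and 2 to 4 with a library left out; the number smaller was 2, against 4 with no minimum, 0 with a minimum of 5 FPKM, 4 with median-of-ratios scaling, 0 with the background subtracted and 1 to 3 with a library left out. The share of all tested genes called moved too. In the first set it was 23.8%, against 20.1% with median-of-ratios scaling and 25.1% with the background subtracted. In the joined fit it was 29.9%, against 34.1% with the replicate block. Between the sets it was 32.5%, against 36.9% with no minimum. A higher minimum tests fewer genes. For the other settings the cause was not tested.

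No value of a called gene changed sign. Over the members, Chd8 and Trp53, 1385 values kept their side of the threshold, 58 gained a call and 43 lost one. The first-set numbers share only a number (correlation of deviations −0.0285), and the block kept the same 5 first-set calls there. The depth behind the FPKM is unknown, so no counting error can be given for the low genes. With a library left out of a first-set group, the lone remaining library was assumed to vary like the other group.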
